A study of Mus musculus with 6 samples.

Results

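The 10 genes described here encode C-type lectin receptors of myeloid cells, which are Clec4n, Clec4d, Clec4e, Clec7a, Clec4a1, Clec4a2, Clec4a3, Clec12a, Clec10a and Mgl2. They were chosen by symbol from the 56980 genes of the expression table, as members of the Dectin and DCIR gene clusters and of the macrophage galactose-type lectins, a rule that uses no measured value but was written with earlier results of these data known. Expression was measured in tumor-associated macrophages (TAMs) sorted as live CD45+CD11b+Ly6G-F4/80+ cells from ID8 tumors, 2 months after intraperitoneal injection of the cells. ID8 is an ovarian epithelial cancer cell line of C57BL/6 mice. The WT group held 3 libraries from C57BL/6 mice, and the C5aR-/- group held 3 libraries from C57BL/6-background mice that lack the receptor for the complement fragment C5a. The mice were young adult females, and the knockout is given for the whole mouse with no restriction to a cell type, so the comparison was not limited to macrophages. The labels number the libraries without stating that each came from a separate animal, and the study describes more mice per group than there are libraries here, so p-values measure only the spread between these libraries.

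C-type lectin receptors are membrane proteins whose extracellular domain binds sugars, lipids or products of dying cells. Dectin-2, MCL and Mincle pair with the Fc receptor gamma chain, and Dectin-1 carries a signaling motif of its own. Both routes run through the kinase Syk and the adaptor Card9 to NF-kB. DCIR and MICL carry inhibitory motifs that recruit the phosphatases SHP-1 and SHP-2, whereas the galactose-type lectins take up glycans with terminal galactose or N-acetylgalactosamine. Macrophages, monocytes, dendritic cells and neutrophils all use members of the family, in different proportions.

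All 10 genes had a TPM (transcripts per 1000000, a level normalized for transcript length and library total) of at least 1 in at least 3 libraries, the threshold for testing. Clec4n, Clec4a2, Clec7a and Mgl2 were higher in C5aR-/- TAMs, and Clec4d and Clec4e were not. A call at the adjusted threshold needed a fold change of 2 or more with an adjusted p under 0.05, and limma made 0 such calls among the 10 genes and 0% among the 14776 genes tested. Of all genes tested, 2133 had an unadjusted p under 0.05. At the unadjusted threshold, which takes the unadjusted p in its place, 4 of the 10 were higher, against 2.13% of the genes tested, and 0 were lower, against 2.84%. The differences of 8 members were above 0, and so were those of 44.5% of the genes tested. Their median difference was 0.63 in log2(TPM + 1), whereas the median over all genes tested was -0.05. In 2 members, Clec4n and Clec4a2, every C5aR-/- library lay above every WT library, as in 8.84% of the genes tested.

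**Figure D1:**
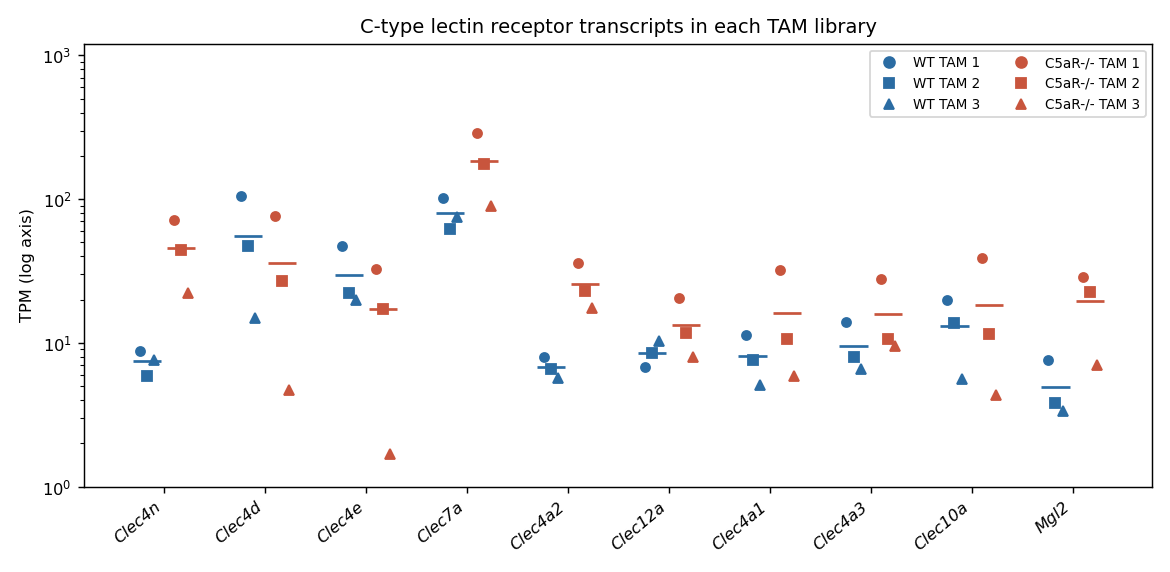
TPM of the 10 receptor genes on a log axis, with 1 point per library (WT in blue, C5aR-/- in red, replicate 1 to 3 as circle, square and triangle) and bars at the arithmetic mean of each group. The groups are apart for Clec4n and Clec4a2, and in all 10 genes C5aR-/- TAM 1 is the highest and C5aR-/- TAM 3 the lowest of its group.

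C5ar1, the targeted gene, was measured at 86.5, 37.3 and 16.2 TPM in the WT libraries, compared with 0.38, 0.11 and 0.05 TPM in the C5aR-/- libraries, which is the direction the labels give. The difference between the groups came to -5.04 in log2(TPM + 1), with a standard error of 0.56 (limma, adjusted p = 0.0666). Macrophage genes also differed widely within each group. The macrophage index, the mean log2(TPM + 1) of 10 macrophage markers such as Adgre1, was 8.01, 6.85 and 6.44 in the WT libraries and 8.23, 7.43 and 6.67 in the C5aR-/- libraries (two-sided exact permutation p = 0.6). Markers of other cells were present as well. Krt8, an epithelial keratin, was measured at 465, 455 and 460 TPM in the WT libraries, compared with 758, 624 and 743 TPM in the C5aR-/- libraries. Its groups did not overlap, and its log2 difference of 0.62 was below the fold change of 2. Of 8 epithelial genes 7 could be tested, with 3 above 0 and 4 below 0, and their summed TPM overlapped between the groups. Neutrophil genes were measured at 1076, 2526 and 660.07 TPM in sum in the WT libraries, compared with 237, 433 and 32.5 TPM in the C5aR-/- libraries. Of the 10 neutrophil genes 9 could be tested, and 7 of them were lower at the unadjusted threshold. In such bulk libraries, fewer cells of a type and less RNA per cell cannot be told apart.

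Clec4n encodes Dectin-2, an activating receptor for mannans. Its TPM was 8.84, 5.93 and 7.57 in WT TAMs and 71.1, 44.2 and 22.3 in C5aR-/- TAMs. The lowest C5aR-/- library was above the highest WT library, and the C5aR-/- libraries were spread more widely than the WT libraries. The log2 difference came to 2.34 (limma, standard error 0.40 and adjusted p = 0.0948), the largest among the 10 genes in these libraries. It passed the adjusted threshold only without C5aR-/- TAM 1, where it was 1.96 (adjusted p = 0.0401 from limma). The study drew its own RNA-seq comparison of C5aR-/- and WT TAMs from this dataset, so the Clec4n difference is not independent evidence.

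Clec4d and Clec4e, the neighbors of Clec4n on the chromosome, encode MCL and Mincle, which bind mycobacterial glycolipids and, for Mincle, a protein released by dying cells. Clec4d was measured at 105, 47.2 and 15.0 TPM in the WT libraries, compared with 76.0, 26.8 and 4.68 TPM in the C5aR-/- libraries. Clec4e was measured at 47.5, 22.3 and 19.9 TPM in the WT libraries, compared with 32.6, 17.1 and 1.68 TPM in the C5aR-/- libraries. For both genes the groups overlapped, and C5aR-/- TAM 3 was the lowest of the 6 libraries. The log2 difference of Clec4d was -0.92 (95% interval -3.42 to 1.59, adjusted p = 0.729 from limma) and that of Clec4e was -1.29 (95% interval -3.45 to 0.88, adjusted p = 0.561 from limma). These values moved with single libraries. Clec4d was at 0.093 without C5aR-/- TAM 3, at -0.27 without WT TAM 1, at -1.63 without WT TAM 3 and at -1.79 without C5aR-/- TAM 1. Clec4e was at -0.22 without C5aR-/- TAM 3 and at -2.04 without C5aR-/- TAM 1 (adjusted p = 0.218 from limma), where its groups no longer overlapped and it passed the unadjusted threshold.

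Neutrophils and monocytes also express Clec4d and Clec4e, and the summed levels of their markers were lower in C5aR-/- TAMs as well. S100a8, a gene of the neutrophil list, was measured at 259, 641 and 156 TPM in the WT libraries, compared with 45.1, 96.4 and 7.90 TPM in the C5aR-/- libraries. Ly6g, which defines neutrophils and was gated out in the sort, was between 0.62 and 4.94 in WT TAMs and between 0 and 0.56 in C5aR-/- TAMs. Monocyte markers had a summed TPM from 334 to 369 in WT and from 68.6 to 317 in C5aR-/- TAMs. Of the 8, 6 were below 0 and 2 above 0, Ccr2 (log2 difference 0.15) and F13a1 (0.80). Hp weighed on this sum, with 81.9, 83.6 and 209 TPM in WT and 18.6, 48.8 and 8.95 TPM in C5aR-/- libraries. The mean log2(TPM + 1) of the 8 markers overlapped, at 5.08, 4.91 and 4.09 in WT and 4.57, 4.16 and 2.95 in C5aR-/- libraries. At the unadjusted threshold 2 were lower, Ly6c2 (log2 difference -1.41) and Hp (-2.41), and 0 were higher. Markers of large peritoneal macrophages were lower in all 8 genes (median log2 difference -1.68), 3 of them past the unadjusted threshold, with a summed TPM of 1137, 348 and 222 in WT and of 151, 196 and 100.2 in C5aR-/- libraries. The sizes were uneven, with Gata6 at -0.16 and Naip1 at -0.26, both with overlapping groups. Prg4 alone made up 777 TPM of the sum in WT TAM 1. In the WT group the neutrophil sum was highest in WT TAM 2 and the large peritoneal macrophage sum in WT TAM 1. Both receptors were highest in WT TAM 1 too, but so were 9 of the 10 members and all 10 macrophage markers. The part of these cells in the values of Clec4d and Clec4e was not tested.

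Clec7a encodes Dectin-1, the receptor for fungal beta-glucans, and was the most abundant of the 10 transcripts per length in 5 of the 6 libraries. Its TPM was 103, 62.3 and 75.4 in WT TAMs and 288, 174 and 89.0 in C5aR-/- TAMs. C5aR-/- TAM 3 lay below WT TAM 1, so the groups overlapped. In log2(TPM + 1) the groups differed by 1.06 (limma, standard error 0.42 and adjusted p = 0.328). Without C5aR-/- TAM 1 it was 0.66 (adjusted p = 0.302 from limma). The call at the unadjusted threshold was lost without that library and also without WT TAM 2, WT TAM 3 or C5aR-/- TAM 2, where the differences were 0.90, 1.03 and 1.02. It was lost too with no filter, when the eBayes trend was dropped, and with the macrophage index as a covariate, where the difference was 0.82.

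Clec4a2 encodes DCIR, an inhibitory receptor that recruits SHP-1 and SHP-2. Its TPM was 7.96, 6.57 and 5.72 in WT TAMs and 36.2, 23.1 and 17.5 in C5aR-/- TAMs. All 3 C5aR-/- libraries were above all 3 WT libraries. The log2 difference came to 1.73 (limma, standard error 0.28 and adjusted p = 0.0922), and without C5aR-/- TAM 1 it was 1.46 (adjusted p = 0.0324 from limma).

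The DCIR relatives Clec4a1 and Clec4a3, which lack the inhibitory motif, did not differ beyond their spread. Clec4a1 was measured at 11.4, 7.63 and 5.09 TPM in the WT libraries, compared with 32.0, 10.6 and 5.89 TPM in the C5aR-/- libraries, with a log2 difference of 0.67 (95% interval -0.72 to 2.06, adjusted p = 0.641 from limma). Clec4a3 was measured at 13.9, 8.04 and 6.61 TPM in the WT libraries, compared with 27.6, 10.7 and 9.58 TPM in the C5aR-/- libraries, with a log2 difference of 0.59 (95% interval -0.46 to 1.65, adjusted p = 0.586 from limma). In both genes the higher mean of the C5aR-/- group came mostly from C5aR-/- TAM 1, and without it the differences were 0.05 and 0.14. Clec12a, which encodes the inhibitory receptor MICL for uric acid crystals, was measured at 6.81, 8.51 and 10.3 TPM in the WT libraries, compared with 20.6, 11.7 and 7.96 TPM in the C5aR-/- libraries. Its log2 difference was 0.51 (95% interval -0.30 to 1.33, adjusted p = 0.538 from limma). Clec12a was the single member whose WT level was lowest in WT TAM 1.

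The galactose-type lectins Mgl2 and Clec10a are adjacent genes with different values. Mgl2, which encodes MGL2, was measured at 7.61, 3.84 and 3.37 TPM in the WT libraries, compared with 28.8, 22.4 and 6.98 TPM in the C5aR-/- libraries. C5aR-/- TAM 3 lay just below WT TAM 1, and the other C5aR-/- libraries were well above all WT libraries. The log2 difference of Mgl2 came to 1.65 (limma, standard error 0.53 and adjusted p = 0.254). Its call at the unadjusted threshold was lost without WT TAM 2, WT TAM 3, C5aR-/- TAM 1 or C5aR-/- TAM 2, where the differences were 1.53, 1.46, 1.27 and 1.44. Clec10a, which encodes MGL1, was measured at 19.9, 13.8 and 5.65 TPM in the WT libraries, compared with 38.9, 11.5 and 4.36 TPM in the C5aR-/- libraries. Its groups overlapped and its log2 difference of 0.13 (95% interval -1.70 to 1.95, adjusted p = 0.956 from limma) turned to -0.63 without C5aR-/- TAM 1 and to -0.34 without WT TAM 3.

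**Figure D2:**
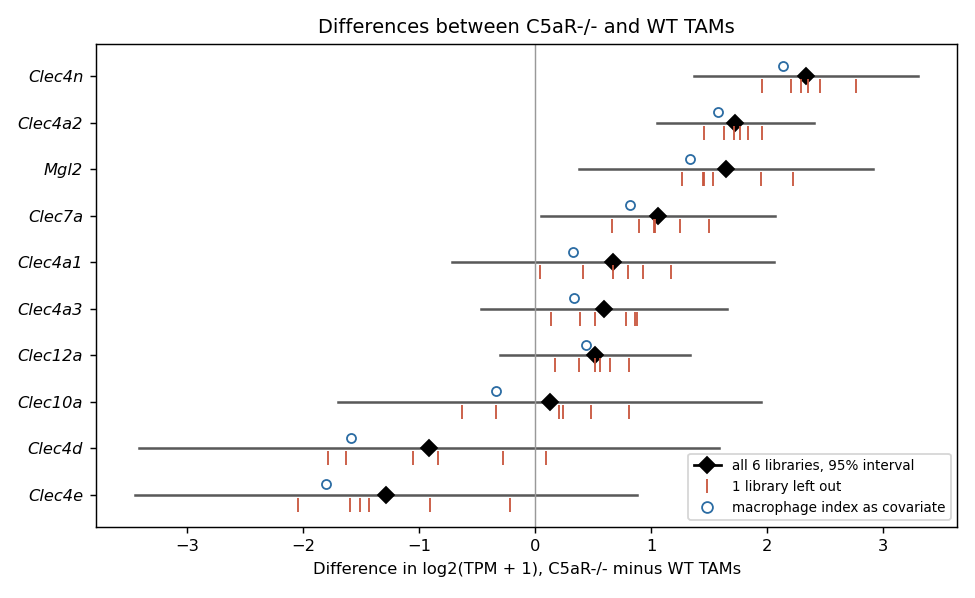
Difference in log2(TPM + 1) between C5aR-/- and WT TAMs for each gene. Diamonds and lines give the limma estimate and its 95% interval over 6 libraries, red ticks the estimate with 1 library left out, and open circles the estimate with the macrophage index as a covariate. The intervals of Clec4n, Clec4a2, Mgl2 and Clec7a lie above 0, and those of the other 6 genes include it.

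The order of the levels differed between the groups. In WT TAMs the mean TPM fell in the order Clec7a (80.1 ± 20.6, SD, n = 3), Clec4d (55.6 ± 45.4), Clec4e (29.9 ± 15.3), Clec10a, Clec4a3, Clec12a, Clec4a1, Clec4n (7.45 ± 1.46), Clec4a2 (6.75 ± 1.13) and Mgl2 (4.94 ± 2.32). The ranges of every pair of neighbors in this order overlapped. In C5aR-/- TAMs the order was Clec7a (184 ± 99.9), Clec4n (45.9 ± 24.5), Clec4d (35.8 ± 36.5), Clec4a2 (25.6 ± 9.59), Mgl2 (19.4 ± 11.2), Clec10a, Clec4e (17.1 ± 15.5), Clec4a1, Clec4a3 and Clec12a (13.4 ± 6.48). Of these neighbors, Clec7a and Clec4n were the only pair without overlap. Clec4n thus stood eighth in WT and second in C5aR-/- TAMs.

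The summed TPM of the 10 genes was 331, 186 and 155 in WT TAMs and 652, 352 and 170 in C5aR-/- TAMs, so the groups overlapped in total level. The size of this sum and its makeup were not compared on a common measure. The shares of Clec4n, Clec4e, Clec4a2 and Mgl2 did not overlap between the groups, and those of the other genes did. Clec7a, the largest mean share, ranged from 30.99% to 48.78% in WT libraries and from 44.19% to 52.37% in C5aR-/- libraries. The mean share of Clec4a2 was 3.21% in WT and 7.47% in C5aR-/- TAMs, and that of Mgl2 was 2.18% and 4.965%. Clec4n made up from 2.67% to 4.90% of the sum in WT libraries and from 10.9% to 13.1% in C5aR-/- libraries. Clec4e made up from 12.0% to 14.4% in WT libraries and from 0.99% to 5.01% in C5aR-/- libraries. The mean share of Clec4d was 22.2% in WT and 7.33% in C5aR-/- TAMs, with the WT share spread from 9.71% to 31.6% and the C5aR-/- share from 2.75% to 11.7%. The mean share of Clec4a1 was 3.61% in WT and 3.80% in C5aR-/- TAMs, and that of Clec4a3 was 4.27% and 4.30%.

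The receptors and the macrophage markers shared an order among the libraries. All 10 were highest in C5aR-/- TAM 1 and lowest in C5aR-/- TAM 3, an order that 28.6% of all genes tested shared and that all 10 macrophage markers shared. In the WT group 7 of 10 were highest in WT TAM 1 and lowest in WT TAM 3, against 15.6% of the genes tested. Each value was therefore also expressed relative to the macrophage index of its library, as log2(TPM + 1) minus the index. On this scale the groups were apart in 5 receptors. Clec4n, Clec7a, Clec4a2 and Mgl2 were higher in every C5aR-/- library than in every WT library, as were 0.487% of the genes tested, and Clec4e was lower, as were 3.26%. Before subtraction of the index these shares were 8.84% and 12.5%. The subtraction narrows the spread of genes that follow the index and widens that of genes that do not. The shares relative to the index therefore cannot show how unusual the receptors were. With 3 libraries against 3, the two-sided exact permutation test gave p = 0.1 for each, the smallest p it allows.

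Relative to the index, Clec4n was at -4.71, -4.06 and -3.34 in WT TAMs and at -2.06, -1.93 and -2.13 in C5aR-/- TAMs. The C5aR-/- libraries, which differed widely in TPM, were within 0.21 of each other, whereas the WT libraries spanned 1.37. Clec7a was at -1.32, -0.86 and -0.19 in WT TAMs and at -0.05, 0.03 and -0.18 in C5aR-/- TAMs, with group ranges of 1.13 and 0.21. The closest Clec7a values of the groups, those of WT TAM 3 and C5aR-/- TAM 3, were nearly equal, and with a pseudocount of 0.1 the groups overlapped in Clec7a and were apart in 4 receptors. Clec4a2 was at -4.85, -3.93 and -3.69 in WT TAMs and at -3.01, -2.84 and -2.46 in C5aR-/- TAMs. Mgl2 was at -4.91, -4.57 and -4.32 in WT TAMs and at -3.33, -2.88 and -3.68 in C5aR-/- TAMs. The mean differences were 2.00 for Clec4n, 0.72 for Clec7a, 1.39 for Clec4a2 and 1.30 for Mgl2 in log2 units.

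Clec4e was at -2.41, -2.31 and -2.06 in WT TAMs and at -3.16, -3.25 and -5.25 in C5aR-/- TAMs relative to the index, a mean difference of -1.63. Here the WT libraries were the closer ones, and C5aR-/- TAM 3 stood apart. Clec4d differed by -1.26 with 1 overlap, since WT TAM 3 at -2.44 lay below C5aR-/- TAM 1 at -1.96 (exact permutation p = 0.2). With the index as a covariate in the limma fit, Clec4d was at -1.59 (adjusted p = 0.132) and Clec4e at -1.81 (adjusted p = 0.171), both past the unadjusted threshold. The neutrophil, monocyte and large peritoneal macrophage values given above were not expressed relative to the index. Their part in these differences was not tested.

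**Figure D3:**
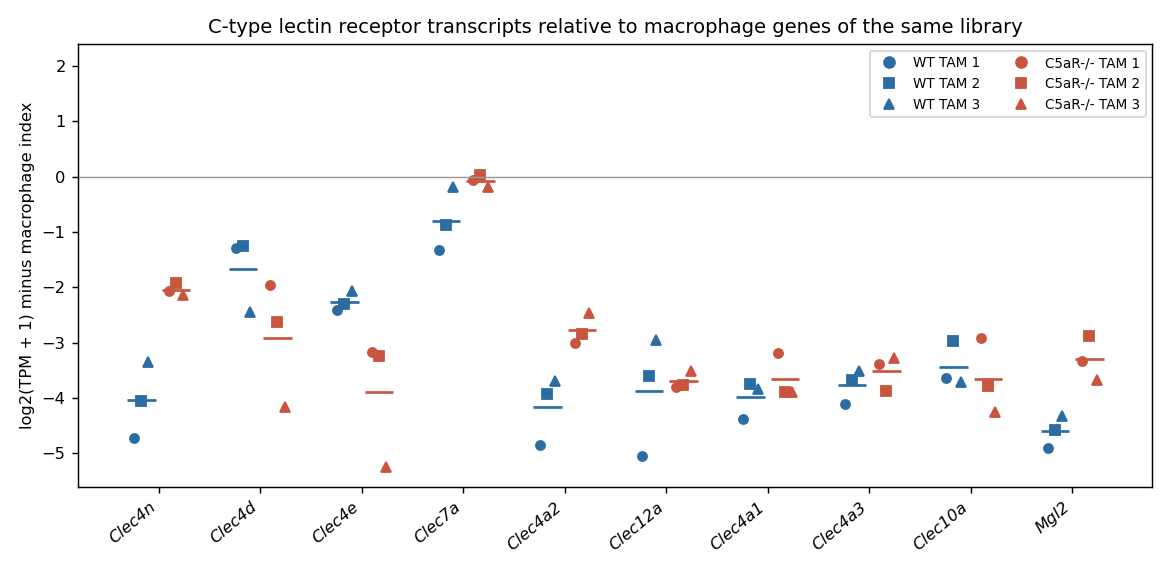
Level of each receptor gene relative to macrophage genes, as log2(TPM + 1) minus the mean log2(TPM + 1) of 10 macrophage markers in the same library. Points are libraries and bars are group means, and a value of 0 is the mean level of the macrophage markers. Clec4n, Clec7a, Clec4a2 and Mgl2 lie higher and Clec4e lower in all C5aR-/- libraries.

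Ratios between receptors of 1 library do not depend on its scaling. Of the 45 pairs of genes, 26 had ratios that did not overlap between the groups, each with a two-sided exact permutation p = 0.1 (0.173 adjusted over the 45 pairs by Benjamini-Hochberg). Pairs are correlated because each gene enters 9 of them, and the pairs given here were chosen after their values were seen. The share of non-overlapping ratios among pairs of other genes was not computed, so the count of 26 cannot be read as particular to the receptors. Clec4n was between 0.085 and 0.504 times the level of Clec4d in WT TAMs and between 0.936 and 4.76 times in C5aR-/- TAMs. The ratio of Clec4n to Clec4e was 0.19, 0.27 and 0.38 in WT TAMs and 2.18, 2.58 and 13.3 in C5aR-/- TAMs, so the less abundant of these neighbors in every WT library was the more abundant in every C5aR-/- library.

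Clec4n and Clec7a, also chosen after their values were seen, kept a nearly fixed ratio within each group. The level of Clec4n was 0.086, 0.095 and 0.1004 times that of Clec7a in WT TAMs and 0.247, 0.254 and 0.250 times in C5aR-/- TAMs. By contrast, the ratio of Clec4d to Clec4e overlapped between the groups, at 2.20, 2.11 and 0.76 in WT TAMs and 2.33, 1.57 and 2.79 in C5aR-/- TAMs. The ratio of Clec4a1 to Clec4a3 overlapped as well, with a range from 0.77 to 0.95 in WT and from 0.61 to 1.16 in C5aR-/- TAMs. Mgl2 and Clec10a did not overlap, with Clec10a at 1.68 to 3.60 times the level of Mgl2 in WT and at 0.51 to 1.35 times in C5aR-/- TAMs.

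**Figure D4:**
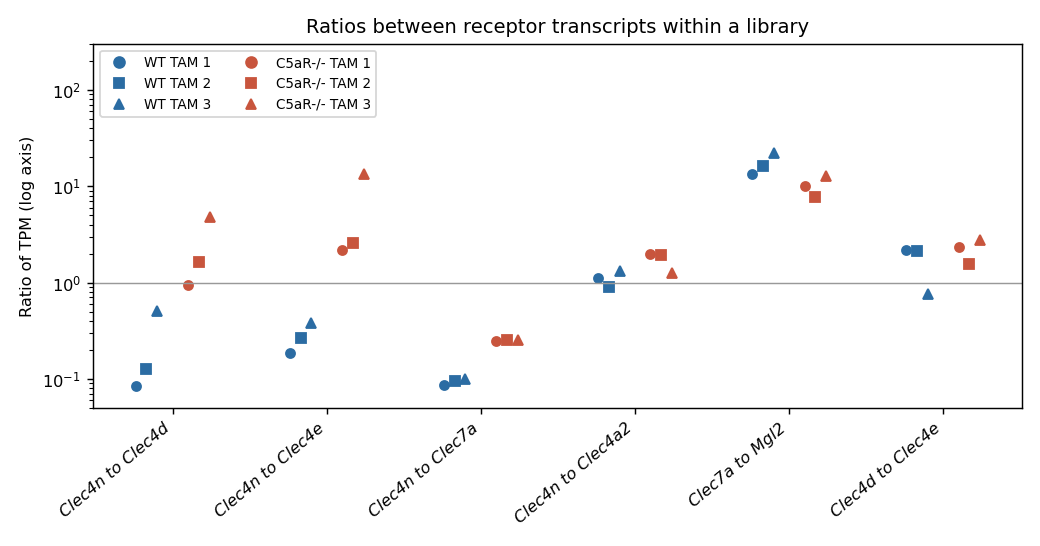
Ratios of TPM between pairs of receptor genes within each library, on a log axis, with 1 point per library. The ratios of Clec4n to Clec4d, Clec4e and Clec7a are higher in all C5aR-/- libraries, and the ratio of Clec4d to Clec4e overlaps between the groups.

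In GENCODE M21 (GRCm38, the mm10 build), 6 of the 10 genes lie together in 368.0 kb of chromosome 6. They stand in the order Clec4a1 (chr6:122921848-122934619), Clec4a3 (chr6:122952515-122969875), Clec4a2 (chr6:123106428-123143999), Clec4n (chr6:123229843-123247021), Clec4d (chr6:123262111-123275265) and Clec4e (chr6:123281789-123289870), with Clec4e alone on the minus strand. Clec4a4 and Clec4b1 lie between Clec4a3 and Clec4a2, and Clec4b2 lies between Clec4a2 and Clec4n. Clec4a4, the second DCIR gene with an inhibitory motif, had a TPM of at most 0.14 and Clec4b2 of at most 0.15, and neither was tested. Clec4b1, an activating relative, was measured at 1.18, 1.38 and 0 TPM in the WT libraries, compared with 3.21, 0.76 and 0.93 TPM in the C5aR-/- libraries. The genes with a higher level in C5aR-/- TAMs, Clec4a2 and Clec4n, were thus separated from each other by a gene near 0, and Clec4n was followed directly by genes that were not higher.

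**Figure D5:**
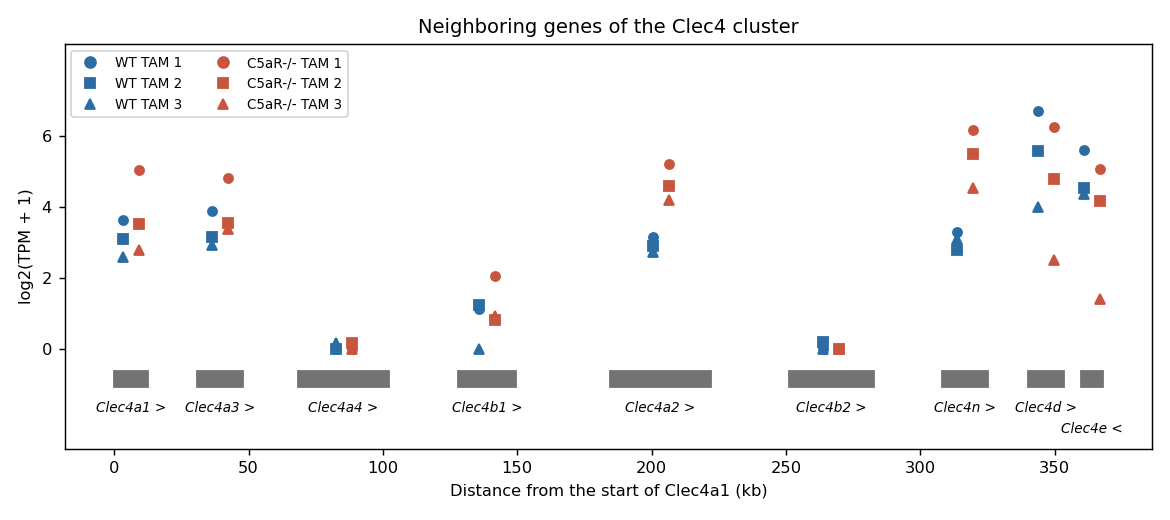
Levels along the Clec4 cluster, with the distance from the start of Clec4a1 in kb on the x axis and log2(TPM + 1) of each library on the y axis. Gray boxes are the annotated genes and arrowheads their strand. C5aR-/- libraries lie above WT libraries at Clec4a2 and Clec4n, and the groups overlap at Clec4a1, Clec4a3, Clec4d and Clec4e.

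Clec12a (chr6:129342691-129365303, plus strand) and Clec7a (chr6:129461591-129472779, minus strand) span 130.1 kb further along chromosome 6, and Mgl2 (chr11:70130329-70137550) and Clec10a (chr11:70156197-70170834) span 40.51 kb of chromosome 11, both on the plus strand. The annotation lists Clec7a as a polymorphic pseudogene. Because neighbors of such families can be alike, the transcripts were compared in windows of 75 bases. Of the windows of Mgl2, 6.56% also occurred in Clec10a, and 4.44% of those of Clec10a occurred in Mgl2. In Clec4a2, 3.24% occurred in Clec4a4 or Clec4b1, and the other 7 genes shared 0 windows with any gene. How the authors' estimation divided reads of shared stretches is not given in the sources used here.

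Promoters of Clec7a and Mgl2, called higher at the unadjusted threshold, and of Clec4d and Clec4e, not called, are shown for comparison. The groups overlapped in each of these genes. RefSeq promoter sequences (GRCm38.p6, 250 bases before each start) were matched for 8 of the 10 genes, and none was matched for Clec4n or Clec10a. Those of Clec4a1, Clec4a2, Clec4a3 and Clec12a were searched but are not printed. Capitals mark GAGGAA, the core bound by the myeloid factor PU.1, or the same letters on the other strand, and bases in annotated exons are not printed, although they were searched.
Clec7a (chr6:129472780-129473029, minus strand): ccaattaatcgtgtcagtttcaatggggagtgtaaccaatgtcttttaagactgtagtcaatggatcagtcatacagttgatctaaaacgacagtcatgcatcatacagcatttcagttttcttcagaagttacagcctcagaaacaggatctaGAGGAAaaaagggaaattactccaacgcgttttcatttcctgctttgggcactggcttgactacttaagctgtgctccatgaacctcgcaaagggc
Mgl2 (chr11:70130107-70130328, plus strand): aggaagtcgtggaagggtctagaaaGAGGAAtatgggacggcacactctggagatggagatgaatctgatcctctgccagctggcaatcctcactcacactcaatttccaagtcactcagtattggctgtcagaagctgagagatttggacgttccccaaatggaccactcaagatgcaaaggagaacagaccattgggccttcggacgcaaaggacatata
Clec4d (chr6:123261857-123262106, plus strand): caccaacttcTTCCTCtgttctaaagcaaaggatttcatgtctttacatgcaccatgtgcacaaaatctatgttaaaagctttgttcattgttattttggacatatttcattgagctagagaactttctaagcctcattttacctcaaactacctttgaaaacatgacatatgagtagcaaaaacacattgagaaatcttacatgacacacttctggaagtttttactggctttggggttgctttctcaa
Clec4e (chr6:123289872-123290121, minus strand): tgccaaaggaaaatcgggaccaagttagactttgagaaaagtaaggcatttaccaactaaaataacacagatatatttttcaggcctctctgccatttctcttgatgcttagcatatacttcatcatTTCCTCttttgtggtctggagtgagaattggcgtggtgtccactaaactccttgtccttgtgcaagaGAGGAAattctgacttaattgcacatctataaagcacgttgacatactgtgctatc
GAGGAA was found on either strand in 6 of the 8 promoters, those of Clec4d, Clec4e, Clec7a, Clec4a1, Clec12a and Mgl2, and in 23.3% of all 32851 promoters of this length. The Clec12a stretch lies wholly in annotated exons, 7553 bases from the annotated start, so its matches are in transcribed sequence. Of the genes holding GAGGAA, Clec7a and Mgl2 were called higher at the unadjusted threshold, and Clec4d, Clec4e, Clec4a1 and Clec12a were not. No promoter of Clec4n was available to search, and a relation of the motif to the differences was not tested. Clec4a2 and Clec4a3 held none of the motifs searched, although the RefSeq start of Clec4a2 lies 16262 bases from the annotated one.

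The other motifs were searched on both strands too. The STAT6 element, TTC and GAA with 4 bases between them, was in Clec7a and Clec4a1 (5.85% of all promoters), the C/EBP element TTGCNNAA in Clec4e and Clec12a (9.56%), the NF-kB element, GGG and CC with 5 bases between them, in Clec4a1 and Mgl2 (45.8%), and the AP-1 element TGANTCA in Clec12a (6.75%). The matches in Clec12a are the exonic ones, and 1 of the 2 NF-kB matches in Mgl2 lies in an annotated exon. The hypoxia element ACGTG was in Clec4e (16.6%), and the interferon element, GAAA repeated after 2 bases, was in 0 of the 8 (2.98%). No matches of different motifs overlapped in these promoters. A match here describes letters and not binding.

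Of the signaling genes downstream of the receptors, the ITAM and Card9 module and the inhibitory genes had medians near that of all genes (-0.05). The inducible outputs had a lower one. Of 20 genes of the ITAM and Card9 module, 14 were higher and 6 lower, and the median of their differences was 0.08. Of the 20, 0 passed the unadjusted threshold. Fcer1g, the gamma chain that carries Dectin-2 and Mincle to the surface, was measured at 273, 167 and 151 TPM in the WT libraries, compared with 419, 251 and 174 TPM in the C5aR-/- libraries (log2 difference 0.47, adjusted p = 0.6002 from limma). Syk, the kinase, was at -0.17 and Card9 at -0.36, each with overlapping groups. Of 9 inhibitory genes 0 were called, with a median of 0.04, and Ptpn6, which encodes SHP-1, was at 0.04. Of 16 inducible outputs of these receptors, among them Il6, Tnf and Cxcl1, 2 were higher and 14 lower, with a median of -0.49, and again 0 were called. Of all genes tested, 44.5% had differences above 0.

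Of 36 other C-type lectin receptor genes, 22 could be tested. Of these, 12 were higher and 10 lower, and the median of their differences was 0.23 in log2(TPM + 1). Among them 3 passed the unadjusted threshold. Cd72, a receptor with an inhibitory motif, was measured at 10.3, 22.7 and 30.7 TPM in the WT libraries, compared with 39.0, 42.0 and 40.1 TPM in the C5aR-/- libraries (log2 difference 1.02, adjusted p = 0.289 from limma). Clec2d, a ligand of an inhibitory NK cell receptor, was lower, at -1.30, and so was Olr1, the receptor for oxidized LDL, at -1.53, with adjusted p of 0.141 and 0.209 from limma. Clec5a, an activating myeloid receptor that signals with Dap12, was between 4.39 and 6.47 in WT and between 8.39 and 10.1 in C5aR-/- TAMs, a log2 difference of 0.60 below the fold threshold. Mrc1, the mannose receptor, was measured at 30.3, 14.9 and 3.34 TPM in the WT libraries, compared with 97.9, 33.2 and 12.3 TPM in the C5aR-/- libraries, with overlapping groups (log2 difference 1.46, adjusted p = 0.518 from limma). Cd209a, a receptor of dendritic cells, was at 0.41. Dendritic cell markers, which could accompany Mgl2, Clec10a and Cd209a, were higher in 5 of the 7 genes tested and lower in 2, with a median log2 difference of 0.19, and 0 passed the unadjusted threshold. Their summed TPM overlapped between the groups and consisted mostly of Cd24a, a gene also expressed by other cells, which was at -0.72, whereas Ccr7 was at 0.65. Flt3 was between 2.32 and 3.95 TPM in all libraries. The part of dendritic cells in these values was not tested.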

How the data were processed

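RNA of sorted TAMs was measured in 6 libraries, grouped by their labels. Reads were trimmed (fastp), aligned (HISAT2) and assembled (StringTie) by the authors, who deposited 1 TPM value per gene and library. The methods name FPKM, and the submitters' processing notes also list RSEM, DESeq2 and mm10. TPM keeps no depth, so the depth and the counting error are unknown and no count test was run.

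Genes that reached 1 TPM in 3 or more libraries were compared on log2(TPM + 1) using limma 3.58.1 (R 4.3.3) with eBayes trend and Benjamini-Hochberg adjustment over 14776 genes. On this scale the change of weakly expressed genes is understated. Calls were counted at adjusted and, separately, unadjusted p under 0.05, in each case requiring a fold change of 2 or more. The fit was also run on simulated data with independent errors for each gene. Such data lack the order that many genes share among these libraries, so that run cannot vouch for the p-values given here. Alternatives were a pseudocount of 0.1, other filters and scalings, a replicate block, no trend, the macrophage index as a covariate, and leaving out each library. Summaries used Python 3.11.15, pandas 2.3.3, numpy 2.4.6 and scipy 1.17.1. Symbols came from GENCODE M21.

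The members and lists were chosen with earlier results of these data known. The named genes were the members, C5ar1, up to 6 genes of each pathway list past the unadjusted threshold, and genes fixed by symbol (Fcer1g, Syk, Card9, Ptpn6, Mrc1, Clec5a, Clec4a4, Clec4b1, Cd209a and the markers Adgre1, Csf1r, Ly6c2, S100a8, Ly6g, Flt3 and Krt8). Clec4b2, Hp, Ccr2, F13a1, Gata6, Naip1, Prg4, Cd24a, Ccr7, Il6, Tnf and Cxcl1 were named outside that rule, after their values were seen. Marker lists were counted for 10 cell types, of which the T and NK cell and B cell lists had 0 genes past the unadjusted threshold, the macrophage and dendritic cell lists also 0, and the large peritoneal macrophage, mesothelial and mast cell lists 3, 3 and 4 lower. The epithelial and mast cell lists had 1 gene each that was higher.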

Additional observations from a re-analysis of the deposited data

How the results depend on the processing

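The directions of Clec4n, Clec4a2, Clec7a, Mgl2, Clec4a1, Clec4a3, Clec12a and Clec4e were the same in all 14 alternatives. Clec4d turned to 0.093 without C5aR-/- TAM 3 and ranged from -1.79 to 0.093 with 1 library left out. Clec10a turned to -0.34 with the macrophage index as a covariate, to -0.34 without WT TAM 3 and to -0.63 without C5aR-/- TAM 1, and ranged from -0.63 to 0.81 with 1 library left out. The cause was not tested. C5ar1 passed the adjusted threshold of limma with the index as a covariate (-5.33, adjusted p = 0.0489) and without C5aR-/- TAM 1 (-5.16, adjusted p = 0.0221). Its values ranged from -5.63 to -4.45 with 1 library left out, and its adjusted p from 0.0221 to 0.329 over all alternatives. With 1 library left out, from 0 to 2 members passed the adjusted threshold, from 2 to 4 the unadjusted one, from 2 to 5 had groups that did not overlap, and from 5 to 7 did so relative to the index. For the last of these, the share over all genes was not computed. The count of 2 at the adjusted threshold came without C5aR-/- TAM 1, where 225 of all genes were higher and 131 lower, against 0 with all libraries. The unadjusted count was 3 with no filter and with eBayes without trend, where Clec7a was lost, and 2 without WT TAM 2, WT TAM 3 or C5aR-/- TAM 2. Without these libraries in turn, 244, 331 and 279 of all genes were higher and 323, 405 and 467 lower. The 5 that did not overlap came without WT TAM 1 or without C5aR-/- TAM 3. Groups of fewer libraries fail to overlap more easily. Of all genes, 1695 were then above and 3235 below without WT TAM 1, and 1926 and 2641 without C5aR-/- TAM 3. With all libraries these counts were 1306 and 1845. With the index as a covariate, 3 members were higher and 2 lower at the unadjusted threshold, and 416 of all genes were higher and 529 lower. Clec7a fell below the fold change of 2 in that fit.

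Libraries numbered 1 and 3 deviated with their counterparts (correlations 0.19 and 0.27) and those numbered 2 did not (-0.01), so the numbers were not taken to pair the libraries. With the replicate block, 4 members passed the unadjusted and 0 the adjusted threshold, and over all genes 344 were higher and 467 lower at the unadjusted threshold, against 314 and 419 without it. Under the block 6 members had an unadjusted p under 0.05 at any fold, against 4 without it. Over all genes tested these counts were 2222 and 2133. The additional members were Clec4a3 and Clec4d, and Clec4d kept its difference of -0.92 with a narrower interval (-1.54 to -0.29, limma adjusted p = 0.218). TPM hides the depth, so the precision of low values such as Clec4e at 1.68 is unknown.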
